A study of Mus musculus with 4 samples.

Results

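The 8 ion channel genes followed here in sensory neurons of the dorsal root ganglion (DRG) of mice were *Asic1*, *Asic2*, and *Asic3*, which encode acid-sensing channels, and *P2rx2*, *P2rx3*, *P2rx4*, *P2rx5*, and *P2rx6*, which encode ATP-gated P2X channels. These 8 genes were taken by their symbols from the 31053 genes of the count matrices, and each symbol matched 1 gene. The data were 4 single-cell RNA sequencing libraries: Male-Sham and Female-Sham, then Male-CCI and Female-CCI. Where 4 values are given together below, they follow this order. CCI is a chronic constriction injury, loose ties placed around the sciatic nerve on both sides, and sham mice had the surgery without the ties. All mice were heterozygous *Pirt*EGFPf animals on a C57BL/6 background, 7 to 8 weeks old, in which the *Pirt* promoter drives a membrane-bound green fluorescent protein in DRG neurons. Each library held sorted fluorescent cells from the lumbar L4 and L5 ganglia of 5 mice (20 DRGs) pooled at day 7 after surgery, so the spread between mice was not measured, and litter followed surgery.

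Acid-sensing channels are sodium-permeable channels of 3 subunits from the degenerin and epithelial sodium channel family that open when protons rise outside the cell. P2X channels are also made of 3 subunits and pass cations when ATP binds. Both families let sensory neurons respond to tissue acid and to ATP released from damaged or stretched cells. P2X3 alone and together with P2X2 carries much of the ATP response of small nociceptors, ASIC3 is known from muscle and cutaneous afferents, and P2X4 is also well known from microglia and macrophages.

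The 4 matrices held 23691 cells, of which 15715 remained once doublets were removed and at least 1500 genes and at most 10% mitochondrial UMIs were required per cell. UMIs are unique molecular identifiers, each a counted RNA molecule, and the remaining cells had a median of 31941.5 to 55255 UMIs per library. Any pair of libraries shared at most 6 cell barcodes. Neurons numbered 3281, 5398, 2817, and 3637. Clusters were named from markers that did not include the 8 genes, and the 8 genes were left out of the variable genes used for clustering. The named classes were nonpeptidergic (NP1-, NP2-, NP3-like), peptidergic (PEP1-, PEP2-, PEP3/4-, PEP5-like), and neurofilament-rich (NF1-, NF2-like) neurons, C-fiber low-threshold mechanoreceptors (cLTMR-like), a class rich in injury-induced genes (CCI-ind-like), and satellite glial cells (SGC-like). The clusters led by *Ly6a*, *Arg2*, and *Rxfp1* had no clear class. Levels are given as CPM, a gene's UMIs per 1000000 UMIs of all genes, summed over the cells of a group in 1 library. Where a gene had no UMI in a group, its level lay below the value that 3 UMIs would give, and such limits cover counting error only.

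*Asic1* (chr15:99670368-99701130), *Asic3* (chr5:24413392-24417835), *P2rx4* (chr5:122707544-122729738), and *P2rx5* (chr11:73160421-73172685) lie on the plus strand of GRCm38, as does *P2rx6* (chr16:17561885-17577800). *Asic2* (chr11:80880169-81968457), *P2rx2* (chr5:110339812-110343212), and *P2rx3* (chr2:84998583-85037462) lie on the minus strand. Exons of *P2rx3* overlap exons of *Ssrp1* on the other strand, and exons of *P2rx6* overlap exons of *Slc7a4* on the other strand. The counts are by gene from the 3′ end, so the splice forms of *Asic1* and *Asic2* were not told apart.

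Promoters were read from RefSeq sequences (GRCm38.p6) for 250 bases before the gene start, and 6 entries matched 5 of the 8 genes, 2 of them for *Asic2*. The binding motif of AP-1 factors, TGANTCA on either strand, was in 6.75% of 32851 promoters and in none of the 6. The cyclic AMP response element, TGACGTCA, was in 1.55% of all promoters and in none of the 6. Its core TGACG, which is part of the longer motif, was in 17.8% of all promoters and in those of *P2rx4* and *Asic1*. These 2 promoters are shown because the genes moved in opposite directions in injured neurons (below), and capitals mark this core, read here on the other strand as CGTCA. The *P2rx4* sequence is chr5:122707294-122707543, with cores starting at bases -178 and -57 from the gene start, and the *Asic1* sequence is chr15:99691974-99692223, with 1 at -209, both on the plus strand. The *Asic1* start of RefSeq lies inside the gene span given above. A match is a description of letters and not a binding site.
P2rx4: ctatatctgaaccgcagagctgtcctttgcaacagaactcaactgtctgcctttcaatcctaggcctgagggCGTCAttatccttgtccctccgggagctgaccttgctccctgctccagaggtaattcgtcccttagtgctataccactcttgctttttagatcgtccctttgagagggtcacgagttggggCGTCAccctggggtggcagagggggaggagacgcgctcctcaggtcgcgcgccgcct
Asic1: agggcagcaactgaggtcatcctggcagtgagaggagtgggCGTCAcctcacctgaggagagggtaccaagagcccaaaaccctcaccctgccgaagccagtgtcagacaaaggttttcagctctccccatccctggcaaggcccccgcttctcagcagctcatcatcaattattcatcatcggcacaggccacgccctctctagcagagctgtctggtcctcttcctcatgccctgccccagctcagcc

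In sham neurons each of the 3 acid-sensing channel genes had its own distribution over the 10 classes. *Asic1* was highest in PEP5-like neurons, at 112 CPM in Male-Sham and 111 CPM in Female-Sham, followed by NF1-like neurons at 79.7 and 52.7 CPM and cLTMR-like neurons at 22.4 and 24.2 CPM. The ranges of these 3 classes did not overlap. PEP2- and PEP1-like neurons came next with overlapping ranges (13 to 16.3 CPM), and NP1-like neurons had 0 and 1 *Asic1* UMI in 88 and 87 cells. Within the NF1-like class *Asic1* lay in 1 of 2 clusters: it was at 164 and 109.6 CPM in the cluster led by *Pvalb*, a marker of proprioceptors, and at 1.19 and 1.47 CPM in the cluster led by *Cadps2*.

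*Asic2* was the most widespread of the 3 over classes. Its highest level was in NP2-like neurons (103 and 109 CPM), and cLTMR-, NF2-, and NF1-like neurons followed between 69.0 and 91.1 CPM with overlapping ranges. PEP5-like neurons, where *Asic1* peaked, held the lowest *Asic2* level, 8.87 and 11.1 CPM. The same inverse order was seen between the NF1-like clusters, where *Asic2* was at 27.6 and 36.7 CPM in the cluster led by *Pvalb* and at 108 and 131 CPM in that led by *Cadps2*. It did not extend to all classes, since cLTMR-like neurons ranked 3 for *Asic1* and 2 for *Asic2*. *Asic3* was concentrated in NF2-like (82.2 and 76.1 CPM) and PEP1-like neurons (71.8 and 65.7 CPM), then in PEP3/4-like neurons (24.5 and 24.8 CPM). When each cell was thinned to 2000 UMIs, PEP1-like neurons ranked above NF2-like neurons by the share of cells with an *Asic3* UMI, so the order of these top classes depended on the measure. All 3 nonpeptidergic classes had at most 2.23 CPM of *Asic3*.

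Among the P2X genes, *P2rx2* was highest in NP1-like neurons, the class with *Nppb* and *Sst*, at 74.4 and 56.6 CPM. NP3-like neurons had 14.5 and 13.7 CPM and PEP5-like neurons 9.33 and 7.94 CPM, and none of these ranges overlapped. *P2rx3*, the partner of P2X2 in heteromeric channels, was shared by the nonpeptidergic classes: 23.6 and 17.7 CPM in NP2-like, 18.7 and 12 CPM in NP1-like, and 15.8 and 11.9 CPM in NP3-like neurons. The neighbors in this order overlapped, whereas the next class, NF2-like, was at 3.76 and 3.46 CPM. NP2-like neurons thus had *P2rx3* with almost no *P2rx2* (0.224 and 0.204 CPM), and PEP5-like neurons had *P2rx2* with almost no *P2rx3* (1 UMI in each sham library).

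*P2rx4* differed least between classes, 3.27-fold from its highest mean (PEP3/4-like, 29.3 and 25.8 CPM) to its lowest (NP3-like, 7.07 and 9.81 CPM). *P2rx5* was at 9.43 and 8.15 CPM in NF1-like and 6.51 and 6.15 CPM in NP3-like neurons, and cLTMR-like neurons had 0 and 1 UMI in 363 and 674 cells. *P2rx6*, whose subunit joins other P2X subunits, was highest in NF1-like neurons at 22.6 and 24.2 CPM, with 7.69 and 8.84 CPM in NF2-like and 4.44 and 3.84 CPM in PEP5-like neurons. It had no UMI in NP1-like neurons of sham, where the limits were 0.711 and 0.837 CPM, nor in NP3-like neurons, where they were 0.241 and 0.249 CPM.

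**Figure D1:**
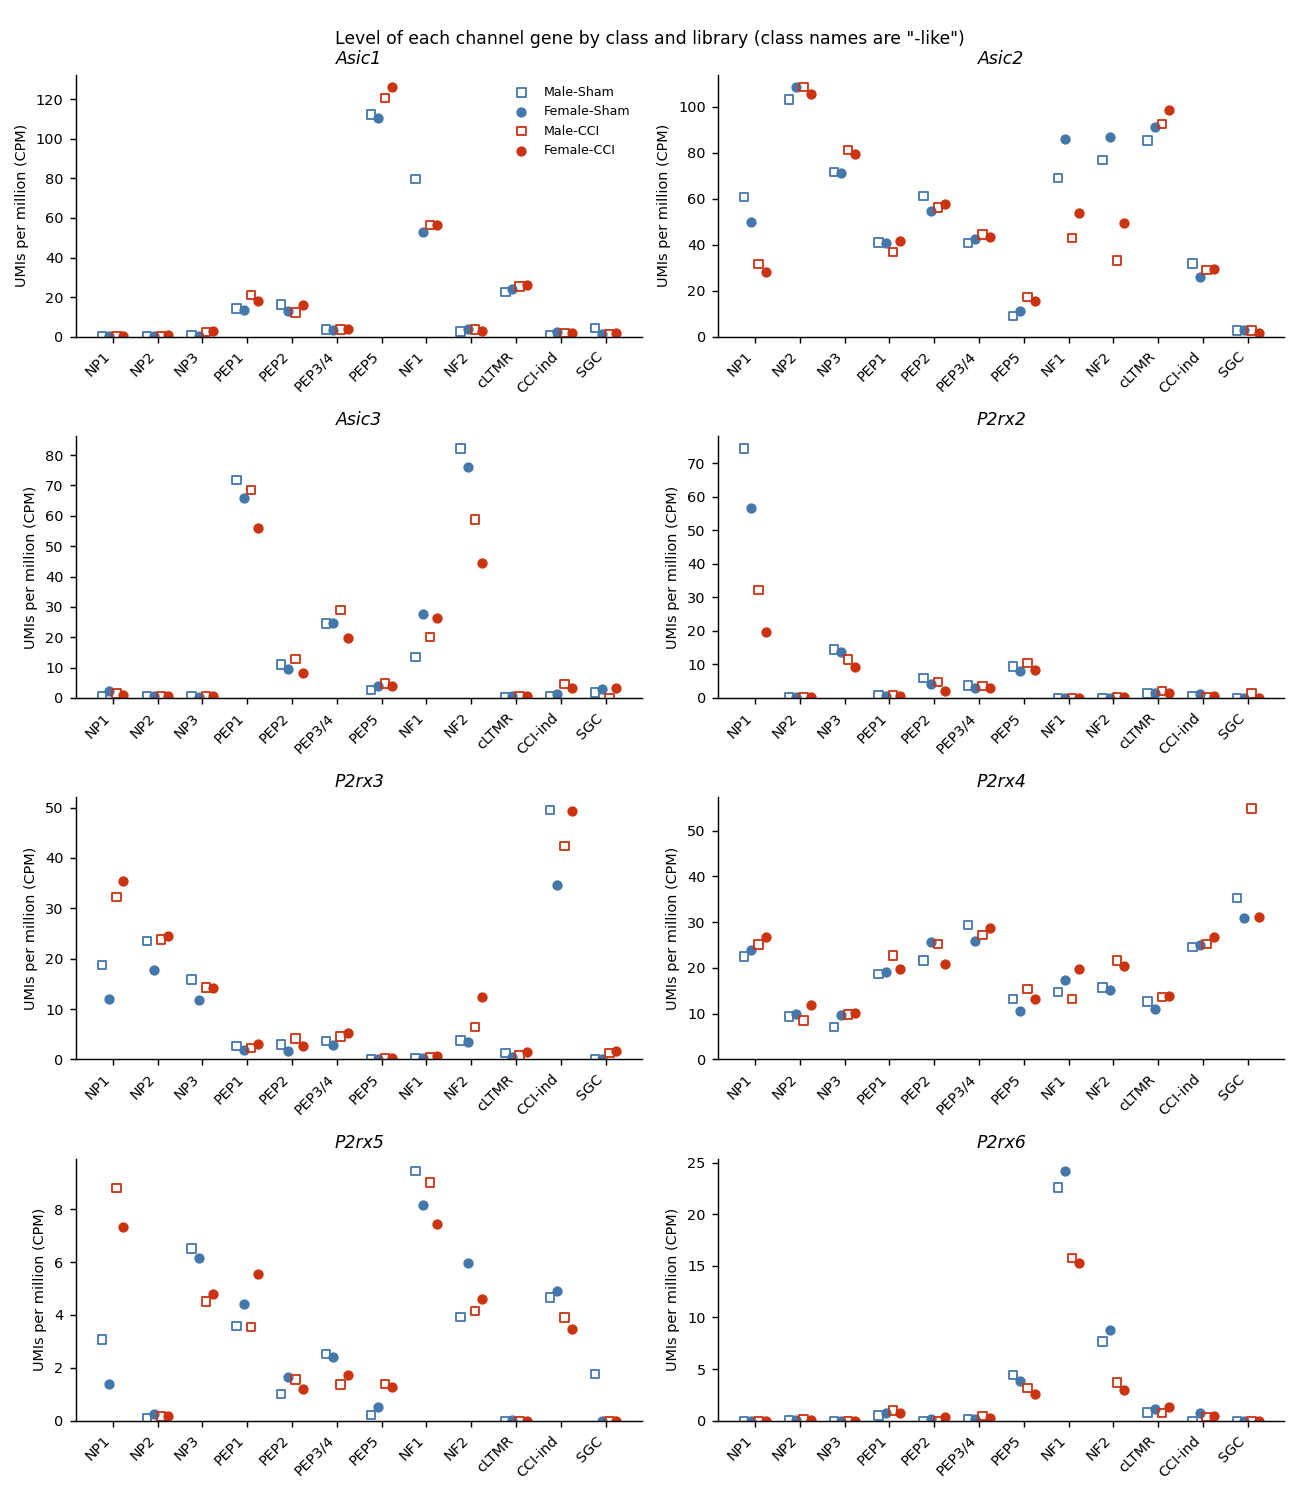
Level of each of the 8 genes (CPM, linear axis) in 10 neuronal classes, CCI-ind-like neurons, and SGC-like cells, with 1 marker per library (open squares male, filled circles female, color for sham or CCI). *Asic1* peaks in PEP5-like, *Asic3* in NF2- and PEP1-like, *P2rx2* in NP1-like, and *P2rx6* in NF1-like neurons, while *P2rx4* is present in every class.

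The first comparison asked how the 8 genes differed between CCI and sham over all neurons. UMIs were summed over the neurons of each library, and the sums of the 2 surgeries were tested with edgeR's quasi-likelihood method, with Benjamini-Hochberg adjustment over all genes. Calls needed an adjusted p below 0.05 and a log2 fold change above 0.5 in size. Each surgery had 1 male and 1 female pool as its replicates, so p-values measure the spread between these pools only. The injury-induced gene *Atf3* was at 131, 161, 723, and 729 CPM, and the injury marker *Sprr1a* at 45.4, 102, 1926, and 1445 CPM, so both were high in the libraries labeled CCI.

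*P2rx3* rose and *P2rx6* fell, and these were the 2 of the 8 genes called, beside 27.8% of the 17233 genes tested (15.2% higher and 12.7% lower). *P2rx3* was at 8.47 and 5.94 CPM in sham and at 20.5 and 22.9 CPM in CCI. Both CCI libraries were far above both sham libraries, a 3.13-fold rise (log2 change 1.65 ± 0.17 (SE, n = 2 per group), edgeR adjusted p = 0.00112). *P2rx6* was at 2.55 and 2.17 CPM in sham and at 1.73 and 1.23 CPM in CCI, a 1.53-fold fall (log2 change -0.62 ± 0.18, edgeR adjusted p = 0.0272). Without Male-Sham the log2 change of *P2rx6* was -0.51 with an edgeR adjusted p of 0.104, and without Female-CCI it was -0.39 with an adjusted p of 0.106, so either of these libraries decided its call.

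The values of the 3 acid-sensing genes were lower in CCI by amounts that passed the limit on p and lay just inside that on size. *Asic2*, measured most precisely, was at 63.5, 62.9, 42.7, and 45.2 CPM, and the sham and CCI libraries lay far apart (log2 change -0.47 ± 0.04, edgeR adjusted p = 0.000149). *Asic1* was at 19.9, 18.1, 13.5, and 12.7 CPM (-0.48 ± 0.07, edgeR adjusted p = 0.0014). *Asic3* was at 21.0, 21.6, 16.2, and 12.9 CPM (-0.50 ± 0.11, edgeR adjusted p = 0.00981), just below the limit on size and therefore not called. All 3 were called when counts were scaled by library size alone, an alternative added after seeing the data, with log2 changes of -0.52 (*Asic2*), -0.54 (*Asic1*), and -0.55 (*Asic3*). Without Male-CCI *Asic3* was called at -0.67 (edgeR adjusted p = 0.0013), and in cells with at most 5% mitochondrial UMIs *Asic1* was called at -0.94 (edgeR adjusted p = 2.06e-05).

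Among the other P2X genes, the values of *P2rx4* and *P2rx5* were higher in CCI, again below the limit on size. *P2rx4* was at 16.6, 17.1, 21.5, and 22.5 CPM (log2 change 0.44 ± 0.06, edgeR adjusted p = 0.000831), and *P2rx5* at 2.66, 2.63, 3.59, and 3.21 CPM (0.42 ± 0.10, edgeR adjusted p = 0.0127). *P2rx2* was at 4.89, 3.71, 3.83, and 2.68 CPM, and its groups overlapped (-0.34 ± 0.21, edgeR adjusted p = 0.213). It was called without Male-CCI (-0.63, edgeR adjusted p = 0.0445) and with at most 5% mitochondrial UMIs (-0.76, edgeR adjusted p = 0.0224). The median log2 change of the 8 genes was -0.41, and that of all genes tested was -0.01.

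In counts summed over neurons, fewer cells of a type and less RNA per cell cannot be told apart. CCI-ind-like neurons made up 1.22% and 2.45% of the neurons of sham and 34.6% and 32.4% of those of CCI. In CCI they held 71.8% and 72.8% of all neuronal *P2rx3* UMIs, and only 4.54% and 5.33% of the *Asic1* UMIs and 9.86% and 8.62% of the *Asic3* UMIs. The *P2rx3* level inside this class was 42.4 and 49.3 CPM in CCI, and the few such neurons of sham, 40 and 132 cells, had 49.6 and 34.6 CPM. *Asic2* in CCI-ind-like neurons was at 31.8, 26.1, 29.1, and 29.3 CPM, so its level there did not separate sham from CCI either.

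RNA from satellite glia was looked for in the neurons because SGC-like cells carry *P2rx4*. All 6 SGC markers were found in neurons, with summed levels of 1343 and 1660 CPM in sham and 982 and 1161 CPM in CCI, whereas SGC-like cells had 99845 to 129430 CPM. The summed SGC markers in neurons were lower in both CCI libraries than in both sham libraries. The 8 immune markers summed to 8.42 to 17.8 CPM in neurons, and 1 of them was at 0 in Female-Sham and in Male-CCI. Schwann cell markers (6 genes) summed to 64.3 and 68.6 CPM in sham and 40.4 and 45.7 CPM in CCI, fibroblast markers (5 genes) to 4.89 and 5.64 CPM and 7.10 and 7.60 CPM, and endothelial markers (5 genes) to 0.542 and 0.623 CPM and 2.64 and 3.55 CPM, with none at 0. The part of these signals in the results was not tested.

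**Figure D2:**
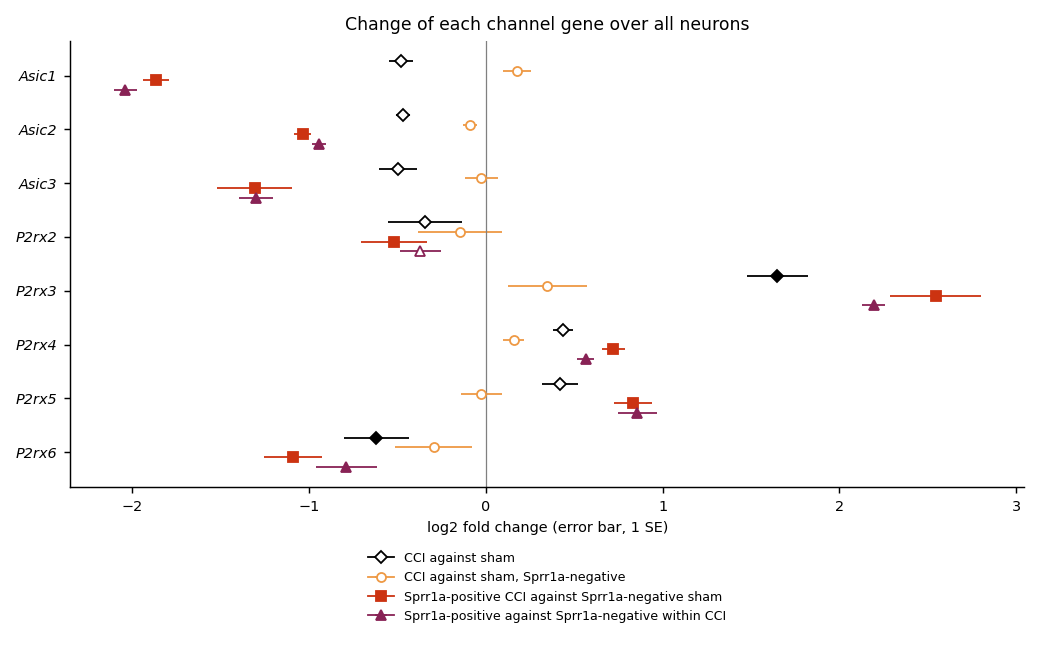
Log2 fold changes of the 8 genes over all neurons (points, with bars of 1 SE) in 4 comparisons: CCI against sham, the same in *Sprr1a*- neurons, *Sprr1a*+ of CCI against *Sprr1a*- of sham, and *Sprr1a*+ against *Sprr1a*- within CCI. Filled markers are called genes: 2, 0, 8, and 7 of the 8 in this order, with *P2rx3* at 1.65, 0.35, 2.54, and 2.19.

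The next comparison took neurons without the injury marker. Neurons were *Sprr1a*+ when the natural logarithm of 1 plus their *Sprr1a* UMIs per 10000 was above 1, which held for 42, 144, 1467, and 1789 neurons, and the others were *Sprr1a*-. Between the *Sprr1a*- neurons of the surgeries none of the 8 genes was called by edgeR or by DESeq2, beside 4.48% of 16407 genes, and 1 had an unadjusted p below 0.05. The acid-sensing genes were close to their sham levels: *Asic1* was at 20.2, 18.6, 23.8, and 20.7 CPM, *Asic2* at 64.0, 64.2, 60.9, and 61.5 CPM, and *Asic3* at 21.3, 22.3, 23.8, and 19.8 CPM. Their log2 changes were 0.17 ± 0.08, -0.09 ± 0.04, and -0.02 ± 0.09. *P2rx3* was at 7.93, 5.04, 8.26, and 8.46 CPM, a log2 change of 0.35 ± 0.22 (edgeR adjusted p = 0.348) in which Male-Sham was close to both CCI libraries. Without Male-Sham it became 0.70 and was called (edgeR adjusted p = 0.0196). *P2rx4* differed by 0.16 ± 0.06 and *P2rx6* by -0.29 ± 0.22. The *P2rx6* change was larger and called with at most 5% mitochondrial UMIs (-1.22, edgeR adjusted p = 0.011) and with any *Sprr1a* UMI taken as positive (-0.80, edgeR adjusted p = 0.0449). The median of the 8 genes was -0.03 and that of all genes tested was -0.000863. *Atf3* was called even here, at 113, 127, 175, and 200 CPM (log2 change 0.62 ± 0.09, edgeR adjusted p = 0.00955).

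By class, 10 classes of *Sprr1a*- neurons gave 61 tests of the 8 genes, of which 10 had an unadjusted p below 0.05 and 2 were called. How many of all genes had an unadjusted p below 0.05 was not counted, neither by class nor over all *Sprr1a*- neurons (above). The share of all genes called was 3.97%, 4.47%, and 2.65% in NP1-, NP2-, and NP3-like neurons, 5.32%, 4.38%, 3.56%, and 3.31% in PEP1-, PEP2-, PEP3/4-, and PEP5-like neurons, 1.07% and 1.67% in NF1- and NF2-like neurons, and 1.72% in cLTMR-like neurons. In PEP5-like neurons *Asic2* rose 1.55-fold, from 8.87 and 11 CPM to 17.2 and 14.7 CPM (log2 change 0.63 ± 0.17, edgeR adjusted p = 0.0272), beside 3.31% of the 12223 genes called in this class. PEP5-like neurons had the lowest *Asic2* level of the 10 classes in sham. The call was lost without Male-Sham (0.48), Male-CCI (0.51), or Female-CCI (0.74), with edgeR adjusted p of 0.0857 to 0.195, and with doublets kept, where the change was 0.25 (edgeR adjusted p = 0.324). In NP3-like neurons *Asic1* rose 4.44-fold (2.15 ± 0.53, edgeR adjusted p = 0.0194), beside 2.65% of 11688 genes, but from 9 and 4 UMIs to 12 and 11 UMIs, or from 0.723 and 0.333 CPM to 2.25 and 2.79 CPM. It was not called without Male-Sham, Female-Sham, or Female-CCI (edgeR adjusted p of 0.0668 to 0.258). Of all NP3-like neurons, 9 of 190, 4 of 238, 8 of 67, and 11 of 68 had an *Asic1* UMI. DESeq2 gave no adjusted p for either of these 2 tests.

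**Figure D3:**
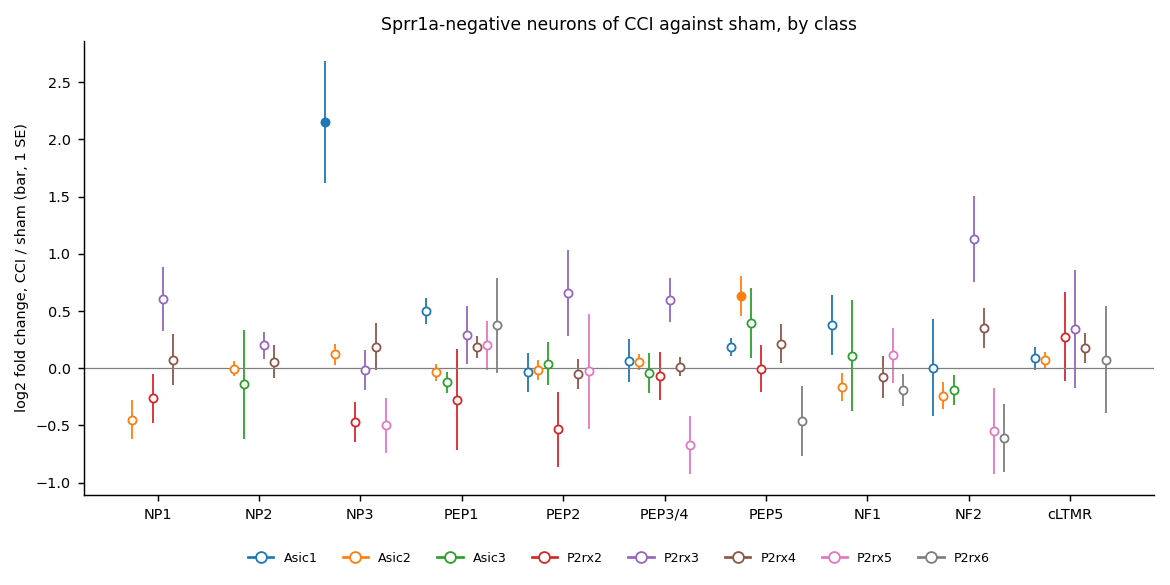
Log2 fold change (± 1 SE) of each gene between the surgeries in *Sprr1a*- neurons, positive where CCI was higher, in each class in which it was tested. Filled markers are the 2 called tests, *Asic1* in NP3-like and *Asic2* in PEP5-like neurons, and open markers are tests that were not called.

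Neurons with the injury marker in CCI were then compared with marker-free neurons in sham, that is, *Sprr1a*+ (CCI) against *Sprr1a*- (sham). Over all neurons 8 of the 8 genes were called, 3 higher and 5 lower, beside 49.8% of 16879 genes, 23.5% higher and 26.4% lower. In these and the following values the 2 sham libraries come first, male before female. All 3 acid-sensing genes fell. *Asic1* dropped from 20.2 and 18.6 CPM to 4.86 and 4.75 CPM, 3.64-fold (log2 change -1.86 ± 0.08, edgeR adjusted p = 3.26e-07). *Asic2* went from 64.0 and 64.2 CPM to 27.2 and 29.2 CPM (-1.03 ± 0.05, edgeR adjusted p = 7.24e-07), and *Asic3* from 21.3 and 22.3 CPM to 9.67 and 6.19 CPM (-1.31 ± 0.21, edgeR adjusted p = 0.0039). For each of the 3 the groups lay well apart. The *Asic3* call was lost without Female-Sham, with nearly the same change (-1.27, edgeR adjusted p = 0.0581).

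The P2X genes split. *P2rx3* rose 5.83-fold, from 7.93 and 5.04 CPM to 30.8 and 37.1 CPM (log2 change 2.54 ± 0.26, edgeR adjusted p = 0.00138). *P2rx4* rose 1.65-fold, from 16.5 and 16.9 CPM to 23.9 and 25.7 CPM (0.72 ± 0.06, edgeR adjusted p = 2.38e-05), and *P2rx5* rose 1.78-fold, from 2.60 and 2.57 CPM to 4.33 and 3.97 CPM (0.83 ± 0.11, edgeR adjusted p = 0.000205). *P2rx6* fell 2.13-fold and *P2rx2* fell 1.43-fold. *P2rx6* was at 2.59 and 2.22 CPM against 1.11 and 0.918 CPM (-1.09 ± 0.16, edgeR adjusted p = 0.000476). For *P2rx2* the levels were 4.86 and 3.65 CPM against 3.06 and 2.28 CPM (-0.52 ± 0.19, edgeR adjusted p = 0.04), and its call was lost without Male-Sham (-0.31, edgeR adjusted p = 0.186) or Female-CCI (-0.32, edgeR adjusted p = 0.208). The median log2 change of the 8 genes was -0.78, and that of all genes tested was -0.01.

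The groups of this comparison differed in makeup. CCI-ind-like neurons were 64.5% and 63.3% of the *Sprr1a*+ neurons of CCI and 0.123% and 0.114% of the *Sprr1a*- neurons of sham. Injured neurons were also deeper, with medians of 60287 and 45680 UMIs against 45022 and 32126.5 UMIs. How far the makeup sets the values over all neurons was not tested, so the same comparison was made inside the classes in which *Sprr1a*+ neurons could still be named, which were NP1-, NF1-, and NF2-like and, at clustering resolution 0.4, PEP5-like. The TMM scaling of edgeR, which centers the bulk of genes, moved log2 changes upward relative to scaling by library size, by 0.15 over all neurons, 0.06 in NP1-, 0.32 in NF1-, and 0.23 in NF2-like neurons, and 0.30 in PEP5-like neurons at resolution 0.4. Fitted changes therefore lie above those read from the CPM levels printed beside them. Of the called genes, 47.7% were higher in NF1-, 48.6% in NF2-, and 48.1% in PEP5-like neurons with TMM scaling, and 25.8%, 32.1%, and 27.6% with library-size scaling.

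NP1-like neurons showed opposite changes of the 2 partner subunits P2X2 and P2X3. Of the 5 genes tested 4 were called, beside 41.6% of 11378 genes. *P2rx2*, which had its highest sham level in this class, fell 3.93-fold, from 77.3 and 63.0 CPM to 21.1 and 13.2 CPM (log2 change -1.98 ± 0.16, edgeR adjusted p = 1.07e-10). *P2rx3* rose 2.86-fold, from 16.9 and 9.30 CPM to 34.5 and 40.2 CPM (1.52 ± 0.19, edgeR adjusted p = 6.17e-09). *P2rx5* rose from 2.34 and 1.07 CPM (9 and 3 UMIs) to 9.74 and 8.74 CPM (2.41 ± 0.38, edgeR adjusted p = 2.19e-07), and *Asic2* fell from 64.6 and 57.6 CPM to 26.5 and 25.4 CPM (-1.18 ± 0.13, edgeR adjusted p = 6.95e-12). *P2rx4*, at 22.6 and 22.9 CPM against 26.2 and 26.7 CPM, was not called (0.28 ± 0.16, edgeR adjusted p = 0.145).

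The NP1-like class consisted of 2 clusters that followed injury. Of the *Sprr1a*+ neurons of CCI 97 of 98 and 109 of 113 lay in the cluster led by *Cd207*, and of the *Sprr1a*- neurons of sham 82 of 83 and 63 of 71 lay in the cluster led by *Sst*. Within the cluster led by *Cd207*, *P2rx2* was at 45.3 and 39.2 CPM in sham (6 and 24 cells) and at 20.4 and 13.1 CPM in CCI. *Asic2* in the same cluster was at 21.3 and 20.5 CPM in sham and at 26.5 and 26.1 CPM in CCI. *Asic2* was thus low in the sham cells of this cluster too, and *P2rx2* was lower in its CCI cells than in its sham cells. Neither difference was tested, and cluster and injury state cannot be told apart here. The cluster held 1, 8, 5, and 11 *Sprr1a*- cells in the 4 libraries. Most of the sham cells of this cluster were themselves *Sprr1a*+ (5 and 16 cells).

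Transcripts of the 2 P2X subunits were also counted in the same cells. Of NP1-like neurons with a *P2rx2* UMI, 39 of 77, 25 of 70, 67 of 81, and 49 of 72 also had a *P2rx3* UMI. In SGC-like cells, which should lack both genes, a *P2rx3* UMI was seen in 0 of 190, 0 of 150, 1 of 130, and 1 of 112 cells, at median depths of 4188.5 to 5175 UMIs against 41177 to 69153 UMIs in NP1-like neurons. Among NP1-like neurons with a *P2rx2* UMI, a *P2rx3* UMI was thus more frequent in the CCI libraries, which were also deeper. The same held for all NP1-like neurons, of which 47.7%, 39.1%, 84.5%, and 74.3% had a *P2rx3* UMI. Of those with a *P2rx3* UMI, in turn, 92.9%, 73.5%, 61.5%, and 44.5% also had a *P2rx2* UMI, a lower share in CCI. After thinning to 2000 UMIs a *P2rx3* UMI was left in 2.27%, 4.60%, 2.33%, and 4.05% of NP1-like neurons, too few to order the libraries.

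In NF1-like neurons 3 of the 6 genes tested were called, all lower, beside 45.5% of 12104 genes (23.8% lower). *Asic2* fell from 69.0 and 86.2 CPM to 19.7 and 16.5 CPM (log2 change -1.72 ± 0.16, edgeR adjusted p = 1.19e-06), *Asic1* from 79.7 and 52.7 CPM to 12.4 and 25.9 CPM (-1.66 ± 0.45, edgeR adjusted p = 0.0476), and *P2rx6* from 22.6 and 24.2 CPM to 8.88 and 10.6 CPM (-0.98 ± 0.19, edgeR adjusted p = 0.000578). *Asic1* was called with little margin, and 5 of 16 alternatives lost the call. Among them were the fits without Male-CCI (-1.07), without Female-CCI (-2.04), and with sex as a block (-1.69, edgeR adjusted p = 0.212). The others took any *Sprr1a* UMI as positive or left injury genes out of clustering. Over all alternatives the log2 change of *Asic1* lay between -2.64 and -0.25. *Asic3* was not called (0.60 ± 0.49, edgeR adjusted p = 0.382), at 13.5 and 27.7 CPM against 22.2 and 28.8 CPM, but with sex as a block it was called as higher (0.74, edgeR adjusted p = 0.000411), as it was without Female-Sham (1.19, edgeR adjusted p = 5.97e-05). Of the *Sprr1a*+ neurons of CCI 52 of 55 and 32 of 32 were in the cluster led by *Pvalb*, against 82 of 148 and 83 of 165 of the *Sprr1a*- neurons of sham. The comparison was therefore repeated in that cluster alone, a choice made after seeing the data. There *Asic1* fell 6.24-fold, from 164 and 109.6 CPM to 12.5 and 25.9 CPM (-2.64 ± 0.38, edgeR adjusted p = 0.00482), and *P2rx6* fell 3.02-fold, from 36.5 and 37.9 CPM to 8.96 and 10.6 CPM (-1.59 ± 0.19, edgeR adjusted p = 1.42e-05). *P2rx4* rose from 10.3 and 11.7 CPM to 14.1 and 22.9 CPM (1.03 ± 0.25, edgeR adjusted p = 0.00364). *Asic2* was no longer called (-0.50 ± 0.20, edgeR adjusted p = 0.0508), with 27.6 and 36.7 CPM in sham against 17.9 and 16.5 CPM, whereas with library-size scaling it was (-0.87, edgeR adjusted p = 0.0018). In this cluster 3 of 6 genes were called, beside 46.7% of 11409 genes. *Asic3* was not called there, and its CPM ratio of CCI to sham was 0.874 in males and 0.497 in females. With library-size scaling its log2 change was -0.74 (edgeR adjusted p = 0.327). Its direction in this cluster was thus opposite to that in the whole NF1-like class.

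NF2-like neurons, where *Asic3* was highest in sham, had 5 of 7 tested genes called, beside 43.9% of 11796 genes. *Asic3* fell 1.59-fold, from 82.2 and 76.1 CPM to 50.7 and 32.3 CPM (log2 change -0.67 ± 0.20, edgeR adjusted p = 0.028). Its call was lost in 5 of 16 alternatives, among them without Male-Sham (-0.63) and without Female-CCI (-0.36, below the limit on size). The others took any *Sprr1a* UMI as positive, allowed at most 5% mitochondrial UMIs, or left injury genes out of clustering. *Asic2* fell 2.84-fold, from 76.9 and 87.0 CPM to 18.9 and 31.7 CPM (-1.51 ± 0.19, edgeR adjusted p = 0.000218), and *P2rx6* fell 3.12-fold, from 7.69 and 8.84 CPM to 2.35 and 2.07 CPM (-1.64 ± 0.30, edgeR adjusted p = 0.00116). The 2 genes that rose were *P2rx3*, from 3.76 and 3.46 CPM to 7.19 and 14.1 CPM (1.72 ± 0.34, edgeR adjusted p = 0.00179), and *P2rx4*, from 15.7 and 15.2 CPM to 22.6 and 22 CPM (0.76 ± 0.15, edgeR adjusted p = 0.00187).

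In PEP5-like neurons at resolution 0.4 *Asic1*, highest in this class in sham, fell, while *Asic2*, lowest in it, rose. At resolution 0.8 this class held too few *Sprr1a*+ neurons for a test, 6 and 12 in CCI. Of the *Sprr1a*+ PEP5-like neurons at resolution 0.4, 145 of 151 and 147 of 159 lay at resolution 0.8 in the unnamed cluster led by *Arg2*, which held 3 of 302 and 6 of 533 of the *Sprr1a*- neurons of sham. The comparison was thus almost wholly between different clusters of resolution 0.8, and cluster and injury state cannot be told apart in it. Of 7 tested genes 5 were called, beside 46.3% of 12605 genes. *Asic1* went from 112 and 110.1 CPM to 30.8 and 31.5 CPM, a 2.90-fold fall (log2 change -1.54 ± 0.09, edgeR adjusted p = 1.26e-15). *Asic2* went from 8.83 and 11.6 CPM to 17.5 and 19.4 CPM, a 2.18-fold rise (1.13 ± 0.16, edgeR adjusted p = 3.57e-07). With library-size scaling these changes were -1.83 and 0.83, both called. When any *Sprr1a* UMI was taken as positive, PEP5-like neurons of resolution 0.8 could be tested, and there *Asic1* was not lower (0.34, edgeR adjusted p = 0.0262, below the limit on size). *P2rx4* went from 13.1 and 10.8 CPM to 17.4 and 18.1 CPM (0.87 ± 0.15, edgeR adjusted p = 8.64e-06, and 0.58 with library-size scaling), and *P2rx5* rose from 2 and 6 UMIs to 16 and 14 UMIs (2.79 ± 0.51, edgeR adjusted p = 2.08e-05). *P2rx2* was called as higher (0.72 ± 0.19, edgeR adjusted p = 0.00177), but its groups overlapped, at 9.28 and 7.95 CPM in sham against 13.8 and 8.87 CPM. It was not called with library-size scaling (0.42, edgeR adjusted p = 0.0533) or with injury genes left out of clustering (0.20, edgeR adjusted p = 0.502). Nor was it called with doublets kept (0.35, edgeR adjusted p = 0.109) or with any *Sprr1a* UMI as positive (0.13, edgeR adjusted p = 0.815). The direction of *P2rx2* here was opposite to that in NP1-like neurons, a difference that was not tested.

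Set side by side, the 4 classes were closer to each other in *Asic2* among *Sprr1a*+ neurons than among *Sprr1a*- ones. The mean *Asic2* level of the highest class was 8.03 times that of the lowest in *Sprr1a*- neurons of sham (NF2- over PEP5-like), 4.25 times in *Sprr1a*- neurons of CCI, and 1.43 times in *Sprr1a*+ neurons of CCI, where the means of the 4 classes lay between 18.1 and 26.0 CPM. For the 6 genes other than *Asic2* and *P2rx5*, the class with the highest mean was the same in all 3 states: PEP5-like for *Asic1*, NF2-like for *Asic3*, NP1-like for *P2rx2*, *P2rx3*, and *P2rx4*, and NF1-like for *P2rx6*. *P2rx4* differed 1.90-fold between these classes in *Sprr1a*- neurons of sham and 1.49-fold in *Sprr1a*+ neurons. Over the 3 states the ratio also fell for *P2rx5* (23.9, 7.45, and 4.10) and *P2rx3* (132, 61.2, and 46.2), and for *Asic3* it was 57.3, 119, and 29.2. In NP1-, NF1-, and PEP5-like neurons the *Sprr1a* states differed in their clusters (above), so these ratios compare groups of unlike makeup. The part of makeup in them was not tested.

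**Figure D4:**
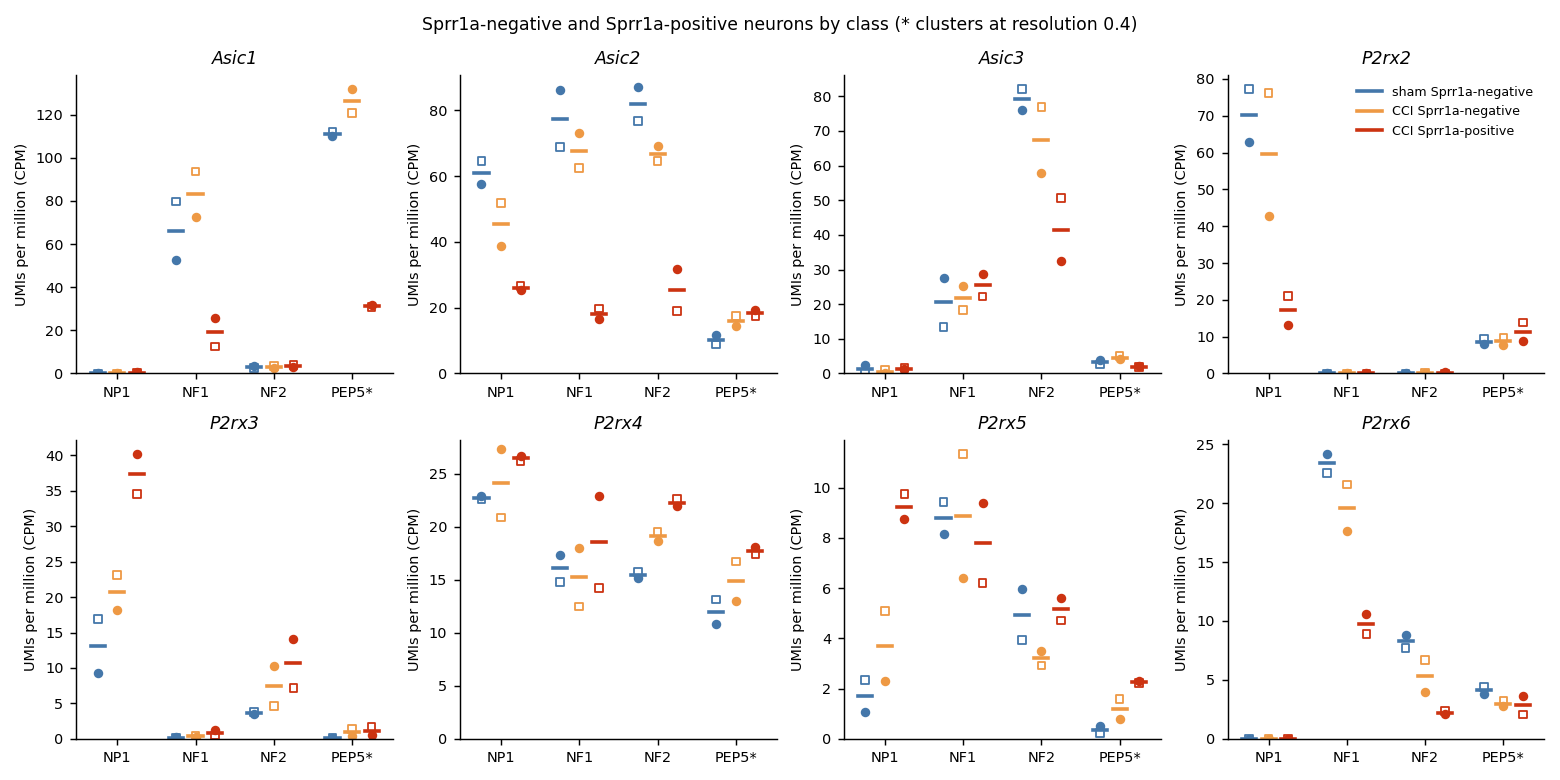
Levels (CPM, linear axis) of the 8 genes in *Sprr1a*- neurons of sham, *Sprr1a*- neurons of CCI, and *Sprr1a*+ neurons of CCI, for NP1-, NF1-, NF2-, and PEP5-like neurons, with 1 marker per library (open squares male, filled circles female). *P2rx2* is lower and *P2rx3* higher in *Sprr1a*+ than in *Sprr1a*- NP1-like neurons, and *Asic1* is lower in *Sprr1a*+ than in *Sprr1a*- PEP5- and NF1-like neurons.

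The last comparison set *Sprr1a*+ against *Sprr1a*- neurons within the CCI libraries, so both came from the same mice and the same run, with the library as a block. This leaves 1 degree of freedom among libraries, to which edgeR added a median of 8.95 from the spread of all genes over all neurons. In NF1-like neurons and in PEP5-like neurons at resolution 0.4 edgeR took the spread of most genes wholly from that of all genes, so the p-values of those fits carry little of the gene's own spread between the 2 libraries. It shares its *Sprr1a*+ neurons with the comparison before. TMM scaling moved log2 changes upward here too, by 0.17 over all neurons, 0.29 in NF1-, 0.18 in NF2-, and 0.32 in PEP5-like neurons. The share of calls that were higher was 45.9%, 47.7%, 47.7%, and 48.3% in this order, and 34%, 26.7%, 32.1%, and 24% with library-size scaling. Over all neurons 7 of the 8 genes were called, 3 higher and 4 lower, beside 45.6% of 16241 genes (20.9% higher and 24.7% lower). *P2rx3* was at 8.26 and 8.46 CPM (male, female) in *Sprr1a*- and at 30.8 and 37.1 CPM in *Sprr1a*+ neurons (log2 change 2.19 ± 0.06, edgeR adjusted p = 1.4e-09), and *Asic1* at 23.8 and 20.7 CPM against 4.86 and 4.75 CPM (-2.04 ± 0.07, edgeR adjusted p = 8.92e-10). In both the 2 libraries moved alike. *Asic2* changed by -0.94 ± 0.04, *Asic3* by -1.30 ± 0.09, *P2rx4* by 0.57 ± 0.05 (0.39 and not called with library-size scaling), and *P2rx5* by 0.86 ± 0.11. *P2rx2* was lower by less than the limit on size (-0.37 ± 0.11, edgeR adjusted p = 0.0136), and was called with library-size scaling (-0.54). *P2rx6* was called lower (-0.79 ± 0.17, edgeR adjusted p = 0.00181), at 2.45 and 1.54 CPM against 1.11 and 0.918 CPM, but its direction turned to 0.62 when cells with over 5% mitochondrial UMIs were left out.

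By class the same split gave smaller changes than the comparison with sham in NP1-like neurons, where *P2rx2* went from 76.2 and 42.8 CPM to 21.1 and 13.2 CPM (log2 change -1.72 ± 0.16, edgeR adjusted p = 1.11e-06) and *P2rx3* from 23.1 and 18.2 CPM to 34.5 and 40.2 CPM (0.91 ± 0.19, edgeR adjusted p = 0.00214). Whether the changes differed between the comparisons was not tested. Here 4 of 5 genes were called, beside 23.9% of 10934 genes. The *Sprr1a*- NP1-like neurons of CCI were 31 and 35 cells, and none of the 4 calls held when cells with over 5% mitochondrial UMIs were left out. In NF1-like neurons 5 of 6 genes were called, beside 44.1% of 11059 genes, with *Asic1* at 93.5 and 72.5 CPM against 12.4 and 25.9 CPM (-2.06 ± 0.16). *Asic3* and *P2rx4* were called as higher there although their groups overlapped, neither was called with library-size scaling (0.24 and 0.26), and within the cluster led by *Pvalb* alone the *Asic3* change was -0.15 ± 0.18. In that cluster *Asic1* changed by -2.84 ± 0.44 and *P2rx4* by 1.07 ± 0.29, and 3 of 6 genes were called, beside 43.9% of 10082 genes. With library-size scaling *P2rx4* was not called there (0.74, edgeR adjusted p = 0.0696), and *Asic2* was called as lower (-0.78, edgeR adjusted p = 0.0125).

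For NF2-like neurons 3 of 7 genes were called, beside 34.9% of 11341 genes: *Asic2* fell (log2 change -1.26 ± 0.15, edgeR adjusted p = 0.000221), *Asic3* fell (-0.53 ± 0.13, edgeR adjusted p = 0.0098), and *P2rx3* rose (0.68 ± 0.24, edgeR adjusted p = 0.0461), though not with library-size scaling (0.52, edgeR adjusted p = 0.119). The *P2rx3* levels of the 2 states overlapped, since Female-CCI was above Male-CCI in both. *Atf3* differed likewise in the *Sprr1a*- NF2-like neurons, at 47.8 CPM in Male-CCI and 252 CPM in Female-CCI, and its part in these values was not tested. PEP5-like neurons at resolution 0.4 had 6 of 7 genes called, beside 43.1% of 12040 genes. *Asic1* went from 121 and 132 CPM to 30.8 and 31.5 CPM (-1.70 ± 0.09, edgeR adjusted p = 2.07e-74) and *Asic2* from 17.5 and 14.4 CPM to 17.5 and 19.4 CPM (0.52 ± 0.16, edgeR adjusted p = 0.0021). With library-size scaling 2 of the 6 calls held, *Asic1* (-2.02) and *Asic3* (-1.22), and *Asic2* changed by 0.20 (edgeR adjusted p = 0.251). With any *Sprr1a* UMI as positive, at resolution 0.8, *Asic1* was called in the other direction (0.52, edgeR adjusted p = 3.42e-06). Here too the *Sprr1a*+ cells lay mostly in the cluster led by *Arg2*.

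Around these channels, 40 other genes of ATP, adenosine, and acid signaling were followed over all neurons of CCI against sham, and 30 were tested. Of these 13 were called, 4 higher and 9 lower, beside the 27.8% of all genes, and their median log2 change was -0.14. Receptors and enzymes for nucleotides were among the lower ones. *P2ry1*, a metabotropic ADP receptor, fell from 39.5 and 38.5 CPM to 13.5 and 17.0 CPM (-1.30 ± 0.11, edgeR adjusted p = 0.000226), *Adora2a*, an adenosine receptor, from 3.68 and 3.87 CPM to 1.40 and 1.96 CPM (-1.11 ± 0.16, edgeR adjusted p = 0.00151), and *Acpp*, an enzyme that makes adenosine from AMP, from 190.4 and 159.9 CPM to 81.9 and 77.2 CPM (-1.08 ± 0.09, edgeR adjusted p = 0.000122). The proton-sensing receptor *Gpr65* fell at a low level, from 0.345 and 0.317 CPM to 0.148 and 0.188 CPM (-0.92 ± 0.24, edgeR adjusted p = 0.0156). *Stom*, whose membrane protein stomatin modulates acid-sensing channels, rose from 5.58 and 5.47 CPM to 19.4 and 17.8 CPM (1.81 ± 0.07, edgeR adjusted p = 9.07e-06). The UDP receptor *P2ry6* rose 8.58-fold, from 0.0801 and 0.0369 CPM to 0.504 and 0.450 CPM (3.10 ± 0.33, edgeR adjusted p = 0.000369). *P2ry14* rose 2.07-fold, from 0.468 and 0.433 CPM to 0.867 and 0.932 CPM (1.05 ± 0.16, edgeR adjusted p = 0.00175). The epithelial sodium channel subunit *Scnn1a* rose 1.75-fold, from 0.203 and 0.280 CPM to 0.449 and 0.369 CPM (0.80 ± 0.25, edgeR adjusted p = 0.0302). Over all neurons 3 UMIs gave 0.0158 to 0.0188 CPM, so the sham level of *P2ry6* rests on few UMIs.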

How the data were processed

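Fluorescent DRG cells of 4 pools of mice were sequenced with a droplet 3′ kit (10x Genomics, version 3). The deposited matrices hold raw UMI counts per gene and cell barcode that the authors made with Cell Ranger on mm10. Its version is 3.0.2 in the matrix headers and 2.1.1 in the submitters' processing notes. No columns of other samples were used.

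Doublets were scored with Scrublet (scanpy 1.11.5) and the top scores were removed in the number the study removed. Cells were integrated by canonical correlation analysis and clustered at resolution 0.8 in Seurat 5.3.0. Of the 8 genes, 6 were among the variable genes and were left out of them. A class was named from fixed markers.

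Counts were summed per library, class, and *Sprr1a* state, and tested with edgeR 4.0.16 (quasi-likelihood, TMM scaling, filter on low counts) over all genes. A sum over a class thus has 1 value per library, and each surgery has 2 libraries. DESeq2 1.42.0 was an alternative, as was scaling by library size alone, which was added after seeing the data. Scripts were tested on simulated data. Genes named from the list around the channels were, of those called over all neurons, at most the 4 with the largest changes in each direction. The members, lists, and tests were chosen with earlier results of these data known. Intervals are exact binomial or counting intervals (95%) and cover counting error only.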

Additional observations from a re-analysis of the deposited data

Results flagged for a closer look

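The ratio of CCI to sham in *Sprr1a*- neurons was on opposite sides of 1 in the male and the female libraries, beyond counting error in each, for 2 of the 75 values compared, both of them for *Asic3*. Over all *Sprr1a*- neurons the *Asic3* ratio was 1.12 (95% counting interval 1.05 to 1.18) in males and 0.887 (0.836 to 0.940) in females. In *Sprr1a*- PEP3/4-like neurons it was 1.18 (1.04 to 1.34) in males and 0.797 (0.7 to 0.907) in females. With 1 library per sex and surgery the difference between the sexes was not tested, and the intervals leave out the spread between pools. In all, 31 of the 75 values had opposite directions in the sexes.

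SGC-like cells lie outside the comparisons of neurons. Their *P2rx4* level was 54.9 CPM in Male-CCI (42 UMIs), against 35.3 CPM in Male-Sham, 31.0 CPM in Female-Sham, and 31.2 CPM in Female-CCI. Male-CCI had 9 cells in this cluster with at least 3 of 4 macrophage markers, which held 7 of its *P2rx4* UMIs, and the other cells of the cluster were at 49.2 CPM. The summed level of 8 immune markers in the cluster was 528 and 248 CPM in sham, 2000.3 CPM in Male-CCI, and 676 CPM in Female-CCI. The part of macrophage RNA in this value was not tested.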

How the results depend on the processing

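Of 2019 recomputed values for single genes, 1898 were counted as the same, 70 lost a call, and 47 gained one. Another 4 changed direction with a call in either fit. Values called in neither fit were counted as the same whatever their direction. For example, the log2 change of *Asic1* over all *Sprr1a*- neurons ranged from -0.34 to 0.27 over the alternatives. The rise of *P2rx3* over all neurons was called in all 15 alternatives tried, with log2 changes of 1.41 to 1.91.

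Over all neurons of CCI against sham, 4 of the 8 genes were called with at most 5% mitochondrial UMIs, 5 with library-size scaling (added after seeing the data), and 2 to 5 when a library was left out. Among *Sprr1a*- neurons the count of 0 became 1 with any *Sprr1a* UMI taken as positive and 1 with at most 5% mitochondrial UMIs, and was 0 to 1 when a library was left out. By class the 2 calls became 0 with DESeq2, 1 with any *Sprr1a* UMI as positive, 1 with at most 5% mitochondrial UMIs, 0 with doublets kept, 4 without a filter on low counts, and 5 with a *Sprr1a* value above 2 as positive, and ranged from 1 to 4 when a library was left out. With library-size scaling the 2 calls held, and the share of all calls that were higher went from 58.1% to 74.3% in NP3-like and from 58.2% to 68.9% in PEP5-like neurons. Part of the DESeq2 loss is that it gave no adjusted p for the 2 called tests. For *Sprr1a*+ NF1-like neurons against sham, any *Sprr1a* UMI as positive left 1 call. With library-size scaling 28.5% of all genes were called over all neurons of CCI against sham, and 27.8% with TMM scaling. For most other alternatives, here and below, the share of all genes called was not counted. A gain or loss of calls among the 8 genes cannot be told there from one among all genes.

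Within CCI, any *Sprr1a* UMI as positive left 4 calls over all neurons. In NP1-like neurons DESeq2 left 1 call and at most 5% mitochondrial UMIs left 0. In NF1-like neurons DESeq2 left 2 calls, any *Sprr1a* UMI as positive 1, and 3 remained in number with doublets kept, without the filter, without the block, with library-size scaling, or in the cluster led by *Pvalb* alone. In NF2-like neurons DESeq2, at most 5% mitochondrial UMIs, and the fit without the block each left 1 call. The cause of these losses was not tested.

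In 4 values the direction changed and either fit was called. *Asic1* in *Sprr1a*+ NF2-like neurons against sham turned when injury genes were left out of clustering (-1.54, edgeR adjusted p = 0.0268). *P2rx6* within CCI over all neurons turned with any *Sprr1a* UMI as positive (0.22, edgeR adjusted p = 0.41). It also turned with at most 5% mitochondrial UMIs (0.62, edgeR adjusted p = 0.0395). *Asic3* within CCI turned in the *Pvalb* cluster (-0.15, edgeR adjusted p = 0.517). Changes of direction between fits without a call are not in this list.

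Replicate numbers stand for sex, and the labels give no other pairing. Deviations from the group means of libraries of the same sex correlated with r = 0.328 over all neurons, 0.426 in *Sprr1a*- neurons, and 0.289 for *Sprr1a*+ neurons against sham, and between -0.0145 and 0.0217 by class. With sex as a block, 3 genes were called over all neurons of CCI against sham, 0 in *Sprr1a*- neurons, 4 tests by class, and 8 genes in *Sprr1a*+ neurons against sham. Leaving out a library leaves 1 in its group, which is assumed to vary like the others.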

Other observations

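For each of the 8 genes, the 3 genes with the most similar levels over the 10 classes of sham neurons were listed by Pearson's r of log levels across 20 points, 10 classes in each of the 2 sham libraries. Classes of 1 library share its depth and preparation, and r describes these libraries only. *Asic1* was most like *Tm6sf1* (r = 0.93), *Fads6* (0.93), and *Chchd10* (0.93). *Asic2* was most like *Piezo2* (0.92), which encodes a mechanically gated channel of touch receptors, then *Tusc5* (0.89) and *Zfand3* (0.89). For *Asic3* the nearest genes were *Abcg2* (0.94), *Elfn1* (0.94), and *1110046J04Rik* (0.93).

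Among the P2X genes, *P2rx6* had the closest neighbors, *Mpc2* (r = 0.97), *Hhatl* (0.97), and *Vamp1* (0.97), of which *Vamp1* encodes a synaptic vesicle protein. *P2rx3* was nearest to *Gm9947* (0.94), *Ppp1r2* (0.93), and *Mcfd2* (0.93), and *P2rx2* to *Tcof1* (0.93), *Rpl17* (0.89), and *Tmed5* (0.88). *P2rx4* was nearest to *Ctnnd1* (0.92), *Hnrnpul2* (0.89), and *Qars* (0.88), and *P2rx5* to *Arel1* (0.89), *Entpd5* (0.89), and *Tcea2* (0.88).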
